A study of Mus musculus with 11 samples.

Results

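The genes described here are 29 genes linked to autism, as Tbr1 itself is: chromatin regulators, transcription cofactors, postsynaptic scaffolds and growth-signalling genes. They were chosen by symbol from a list that uses none of their values, though it was drawn up with earlier results of these data known, and all 29 were found among the 24421 genes in the files. Their RNA was measured in J-RGCs, ganglion cells of the retina that respond to motion in a preferred direction, from WT and Tbr1 KO mice on a mixed C57BL/6 and CD1 background. Tbr1 is a transcription factor gene of the T-box family. The cells carried green fluorescent protein from a transgenic line specific for J-RGCs, and flow cytometry at postnatal day 4 to 5 gave pools of 100 cells each. The labels name neither that line, nor the sex of the mice, nor the part of Tbr1 removed, nor whether it was removed in all cells. The 5 WT libraries came from 4 animals and the 6 KO libraries from 4 animals. Counts of the 3 animals with 2 libraries each were summed, so each comparison set 4 animals against 4. WT animals are called controls and KO animals mutants, with the letters a to d in library order. Control animal b gave WT libraries 2 and 3, mutant animal a KO libraries 1 and 2, and mutant animal b KO libraries 3 and 4, while every other animal gave 1 library.

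Most of these genes act on chromatin. Remodelers of the CHD family and the BAF complex use ATP to move nucleosomes, histone methyltransferases mark them, and cofactors such as Mediator and the NCoR complex carry signals from DNA-bound factors to RNA polymerase or to histone deacetylases. The rest act at the synapse or in the cytoplasm: SHANK proteins tie glutamate receptors to the actin cytoskeleton, FMRP binds messenger RNA at synapses, and the TSC complex and neurofibromin restrain growth signalling through mTOR and RAS. Loss of 1 copy of many of these genes in people is linked to autism or intellectual disability.

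Reads counted over genes ranged from 8609845 to 34718693 per library. Levels are TMM-scaled CPM, a gene's counts set against a common library total. Tbr1 was at 170 ± 16.5 CPM in control animals and 120 ± 23.4 in mutants (± SD, 4 animals per genotype), a level that does not check the genotype, since the deleted part is not known. The summed level of 12 pan-ganglion-cell markers was 15968 to 18415 CPM in control animals and 16404 to 18402 in mutants, and of 4 J-RGC markers (Tbr1 among them) 837 to 1056 against 289 to 366, with Jam2 and Sorcs3 past the threshold described below. The first sum hides changes in both directions. Of its 12 genes 0 passed, but 6 had an unadjusted edgeR p under 0.05, against 7.09% of all tested genes. Their log2 fold changes ran from -0.79 to 0.44 over the 12, with 5 positive and 7 negative. The 15 photoreceptor markers in the files summed to 83.2 to 366 CPM in control animals and 76.1 to 1196 in mutants, with mutant animal c highest. Of the 13 tested, 0 passed, but all 13 log2 fold changes were positive (median 1.86). Bipolar markers (8 genes) summed to 54.0 to 93.7 CPM against 55.1 to 279, and all 4 tested were positive (median 1.70). Amacrine markers (9 genes) summed to 24.0 to 61.2 CPM against 30.3 to 60.7, with 4 positive and 1 negative. Non-neural markers (10 genes) summed to 16.5 to 50.5 CPM against 6.24 to 18.7, with 1 positive and 4 negative. Müller glia and progenitor markers (12 genes, of which Clu and Dkk3 passed) summed to 344 to 470 CPM against 476 to 766, and horizontal cell markers (6 genes, Lhx1 at 0) to 48.0 to 71.7 against 97.0 to 135. Every mutant animal lay above every control animal for these last 2 sums. Exact two-sided permutation gave p = 0.0286 each, the smallest that 4 against 4 animals allow and the value of any such separation. The lists were drawn up with earlier results known and the Müller sum includes Clu and Dkk3, so these p-values are not independent support. Of the 11 Müller genes tested, 3 had an unadjusted edgeR p under 0.05, and log2 fold changes ran from -1.44 to 1.40 (10 positive, 1 negative). Of the 5 horizontal genes tested, 2 had such a p and all 5 were positive. The part of such cells in the results below was not tested. In bulk samples, fewer cells of a type and less RNA per cell cannot be told apart.

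The members are long genes with CpG-rich promoters. The longest annotated transcript had a median of 8.24 kb over the 29 members and 3.39 kb over the tested genes, and 25 members had one over 5 kb, against 22.9% of tested genes. Their median span on the chromosome was 77.9 kb against 24.4 kb. Promoter windows from RefSeq (GRCm38.p6, 250 bases before to 50 after each start) were found for 21 members, giving 25 windows. They held a median of 29 CpG dinucleotides, against 20 over 13785 windows of tested genes, and 19 of the 25 held at least 20, against 50.7% of the windows of tested genes. The following 3 stretches of 100 bases directly upstream of the start, all of members, are examples of CpG-rich and CpG-poor windows, with CpG in capitals. Shank3 and Med13l are the members whose genotypes did not overlap (below), and Setd5 is a member with a CpG-poor window, whose RefSeq start lies inside the gene as GENCODE draws it.

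Shank3, chr15:89499508-89499607, plus strand: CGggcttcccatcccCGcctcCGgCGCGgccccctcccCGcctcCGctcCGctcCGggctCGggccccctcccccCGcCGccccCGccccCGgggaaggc

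Med13l, chr5:118560619-118560718, plus strand: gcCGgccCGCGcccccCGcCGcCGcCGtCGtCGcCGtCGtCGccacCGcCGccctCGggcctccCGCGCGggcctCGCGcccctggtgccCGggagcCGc

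Setd5, chr6:113104835-113104934, plus strand: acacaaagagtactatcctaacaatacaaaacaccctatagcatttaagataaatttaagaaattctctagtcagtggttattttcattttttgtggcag

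The stretches held 14, 22 and 0 CpG in that order. T-box factors such as Tbr1 are known to bind a half-site with the letters AGGTGT, so the 25 windows were searched for it on both strands. It was found in 2 of them (8%), those of Naa15 and Tcf20, against 11.2% of the windows of tested genes and 13.7% of all 32817 windows. Both matches were also matches to the longer form AGGTGTGA, which 1.27% of all windows held. All windows had a lower median CpG number (7) than those of tested genes (20), for which the longer form was not counted separately. The 30 bases around each match are printed with the half-site in capitals, in the direction of the gene.

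Naa15, chr3:51415952-51415981, plus strand, match starting 52 bases upstream of the start: ctgcgcgttgggAGGTGTgacccgggtggg

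Tcf20, chr15:82912233-82912262, minus strand, match starting 116 bases upstream of the start: tccaccctgcagAGGTGTgatccggcaggg

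Such a match is a description of the letters and not a binding site. As for Setd5, both RefSeq starts lie inside the gene as GENCODE draws it. There Naa15 begins at 51415148, and Tcf20, on the minus strand, at 82987872. Naa15 and Tcf20 had log2 fold changes of -0.06 ± 0.17 (SE) and -0.15 ± 0.21, and neither passed the test.

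None of the 28 members tested passed the threshold between genotypes. The test was edgeR's quasi-likelihood test over 13957 genes with p-values adjusted by Benjamini-Hochberg and called under 0.05, by which 0.287% of all tested genes were called (0.086% higher and 0.201% lower in mutants). The lowest adjusted p among the members was 0.669 in that edgeR test, and DESeq2 and limma voom also called 0 of the 28. At an unadjusted p under 0.05 there were 2 members, Suv420h1 and Shank3 (7.14% of the 28), against 7.09% of all tested genes. The animals of the 2 genotypes did not overlap for 2 members, Shank3 and Med13l (7.14%), against 5.06% of all tested genes. Shank3 was above, as for 2.58% of all tested genes, and Med13l below, as for 2.48%. Both shares are near those of all genes. Of the 28 log2 fold changes, 14 were positive and 14 negative, with a median of -0.0039 beside -0.00071 over all tested genes. The remaining member, Adnp, had too few counts to be tested.

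**Figure D1:**
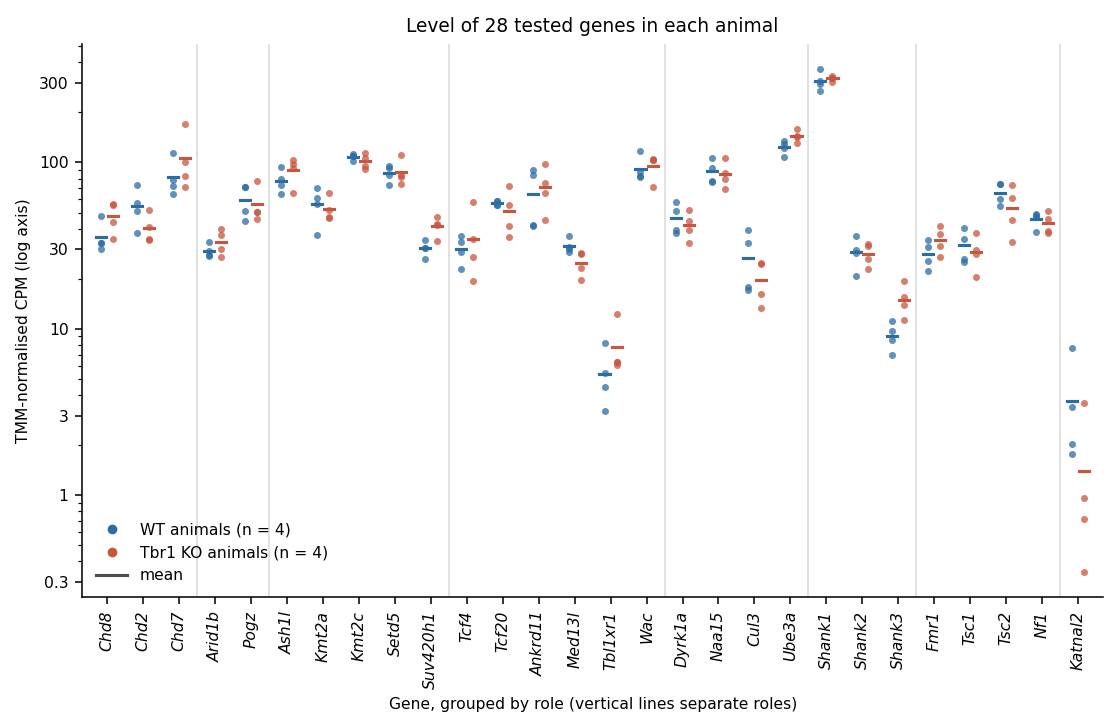
Level of each of the 28 tested genes in TMM-normalised CPM (log axis) in 4 WT animals (blue) and 4 Tbr1 KO animals (red), one point per animal with a line at the mean, grouped by role. Shank1 lies highest at 270 to 364 CPM, the animals of the 2 genotypes are mixed in nearly every gene, and they part for Shank3 and Med13l.

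For most members the data also limited how large a difference could be. The 95% interval of the log2 fold change lay within a 2-fold change in either direction for 24 of the 28 members, against 51.6% of all tested genes, which include many with lower counts. The members had a median control level of 50.7 CPM, against 22.0 over all tested genes. Shank1, Kmt2c and Ube3a had the narrowest intervals, from 0.873-fold to 1.22-fold, 0.777-fold to 1.14-fold and 0.965-fold to 1.40-fold. The 4 members whose interval reached past 2-fold were Shank3, Cul3, Tbl1xr1 and Katnal2.

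**Figure D2:**
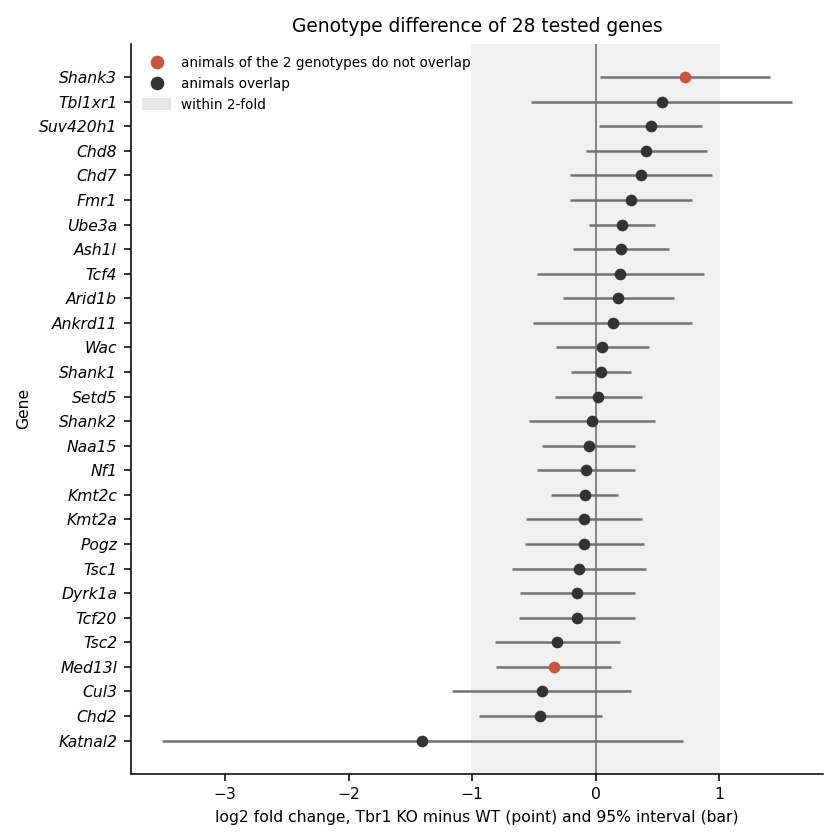
Log2 fold change of Tbr1 KO over WT (points) with its 95% interval (bars) for the 28 tested genes, ordered by size, with the range within 2-fold shaded. The intervals of 24 genes stay inside the shaded range, and Katnal2 has the widest, from -3.51 to 0.70.

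Shank1 differed more from Shank2 and Shank3 than any SHANK gene differed between genotypes. Shank1 (GRCm38 chromosome 7, 44310253 to 44360572) was the most abundant member, at 364, 310, 270 and 295 CPM in control animals a to d and 306, 322, 320 and 331 in mutant animals a to d. The mutants lay inside the range of the controls, and the log2 fold change was 0.04 ± 0.11 (SE). Shank2 was at 28.5, 20.8, 29.9 and 36.0 CPM in controls and 31.3, 26.4, 32.4 and 22.7 in mutants, again overlapping, and the log2 fold change was -0.03 ± 0.24. Shank3 (chromosome 15, 89499623 to 89560261) was at 9.68, 6.92, 11.2 and 8.51 CPM in controls and 15.5, 19.3, 13.8 and 11.3 in mutants. Every mutant animal was above every control animal for Shank3, but mutant animal d (11.28 CPM) and control animal c (11.21 CPM) lay side by side. Its log2 fold change was 0.72 ± 0.32 (SE; 95% interval 0.03 to 1.41). On log2 CPM an exact two-sided permutation gave p = 0.0286, the value of any gene whose genotypes do not overlap. The edgeR quasi-likelihood test gave an unadjusted p of 0.0412 and a Benjamini-Hochberg adjusted p of 0.678.

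Single pools were less separated than animals for Shank3. The pools of control animal b, libraries 2 and 3, had 5.01 and 13.5 CPM from 151 and 116 counts, so the second lay inside the mutant range. The 6 mutant pools ranged from 11.3 to 23.8 CPM. Without control animal b the log2 fold change of Shank3 was 0.61, without mutant animal b 0.58, and over all 8 fits that each left out 1 animal it ranged from 0.58 to 0.84. Mutant animal a, with the lowest photoreceptor marker sum of all animals (76.1 CPM), had the next highest Shank3 level after mutant animal b. The same animal was above every control for Müller glia and progenitor markers (531 CPM against at most 470) and horizontal cell markers (109 against at most 71.7), and their part in the Shank3 level was not tested.

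Levels of different genes can be compared only per length. Per kb of merged GENCODE M21 exons, Shank1 was at 29.5 ± 3.78 CPM per kb in control animals, Shank2 at 2.67 ± 0.579 and Shank3 at 0.988 ± 0.198 (SD, n = 4). Within each control animal Shank1 was 8.40 to 15.3 times Shank2 and 21.1 to 39.2 times Shank3. In mutants these ratios were 10.03 to 14.9 and 14.6 to 25.6. Shank2 and Shank3 were closer, with Shank2 at 2.28 to 3.61 times Shank3 in controls and 1.17 to 2.00 times in mutants. Among 21 other postsynaptic density genes, such as Dlg, Dlgap, Homer and Nlgn members, 0 passed the test over all genes and the median log2 fold change was 0.04. The gene with the lowest p among them was Camk2a, a synaptic kinase subunit, at 130 ± 13.9 CPM in controls and 173 ± 10.2 in mutants (log2 fold change 0.41 ± 0.12, SE), and Camk2b was at -0.16 ± 0.13.

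**Figure D3:**
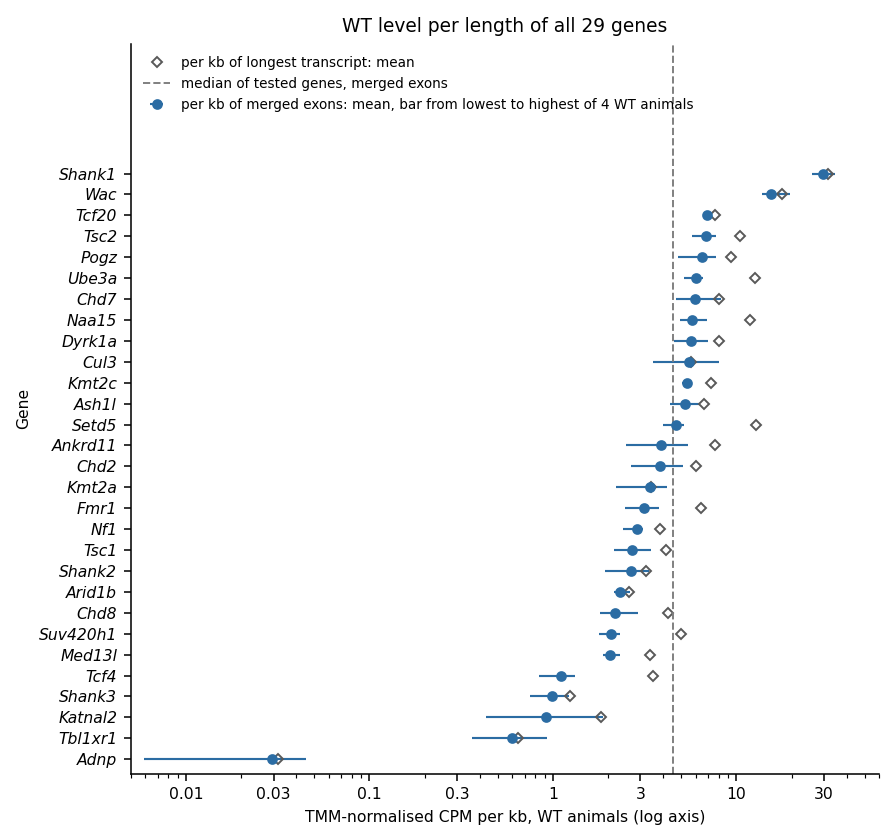
Control level of all 29 genes per length, in TMM-normalised CPM per kb (log axis). Filled points are means per kb of merged exons with bars from the lowest to the highest of 4 WT animals, open diamonds are means per kb of the longest transcript, and the dashed line is the median of tested genes (4.52). Shank1 and Wac stand above the other genes under both lengths, and Adnp far below.

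Over the 28 tested members the median control level was 3.86 CPM per kb, close to the 4.52 of all tested genes, and 13 of the 28 lay above that median. Per kb of the longest transcript it was 6.21 against 6.12. Wac (82.4, 81.5, 116 and 87.0 CPM in controls; 71.5, 104, 103 and 103 in mutants) was next after Shank1 at 15.5 ± 2.81 CPM per kb, and encodes an adaptor of histone ubiquitination. Tcf20, a transcription coregulator, followed at 6.91 ± 0.243 per kb, from 58.6, 55.2, 55.3 and 58.9 CPM in controls. Its mutant animals were spread more widely, at 35.8, 55.8, 41.6 and 72.2 CPM. From Tcf20 down to Setd5 (4.70 ± 0.543) there were 11 members within a narrow range, most of whose neighbours overlapped between animals. The order depends on the length used: of the 5 highest members, 2 were the same under both lengths (Shank1 and Wac).

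The 3 CHD remodelers did not differ in one direction. Chd8 (chromosome 14, 52198151 to 52257780) is a remodeler that binds active promoters and one of the genes most often linked to autism. It was at 30.005, 32.7, 32.9 and 47.9 CPM in controls and 55.5, 56.1, 44.1 and 34.8 in mutants, with control animal d above mutant animals c and d. Its log2 fold change was 0.41 ± 0.22 (SE). The pools of control animal b alone spanned 23.8 to 63.2 CPM of Chd8, the full range of all 11 pools. Chd2, whose loss is linked to epilepsy, was at 51.3, 73.2, 37.9 and 57.1 CPM in controls and 34.1, 40.8, 34.4 and 51.7 in mutants, for a log2 fold change of -0.45 ± 0.23. It shares 2628 exonic bases with 1810026B05Rik on the same strand. Neither passed the edgeR test (Benjamini-Hochberg adjusted p of 0.790 and 0.765).

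Chd7, the gene of CHARGE syndrome, was at 78.2, 71.9, 64.4 and 114 CPM in controls and 71.1, 100.4, 169 and 82.7 in mutants. Its log2 fold change of 0.37 ± 0.26 (SE) was 0.05 without mutant animal c, the animal with the highest photoreceptor, bipolar and Müller marker sums. Among the controls the highest Chd7 level was that of control animal d, which also had the highest photoreceptor sum of the controls (366 CPM). Mutant animal d had nearly the same photoreceptor sum (365.6 CPM) but 82.7 CPM of Chd7. Control animal a had the lowest photoreceptor sum of the controls (83.2 CPM) and the next highest Chd7 level of the controls (78.2 CPM). The part of other cells in the Chd7 level was not tested. Of the 7 other CHD genes 0 passed. Chd1 was at 0.51 ± 0.25 and Chd3 at -0.28 ± 0.15 on the log2 fold change scale. Per kb, Chd3 (18.8 ± 1.96 CPM) and Chd4 (15.1 ± 5.51), the remodelers of the NuRD complex, were the highest of the 9 CHD genes in controls, with Chd7 at 5.96 ± 1.59, Chd2 at 3.84 ± 1.02 and Chd8 at 2.17 ± 0.491. Chd8 and Chd1 (2.20 ± 0.417) were the lowest and did not differ beyond their spread, and per kb of the longest transcript Chd1 was the lowest.

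**Figure D4:**
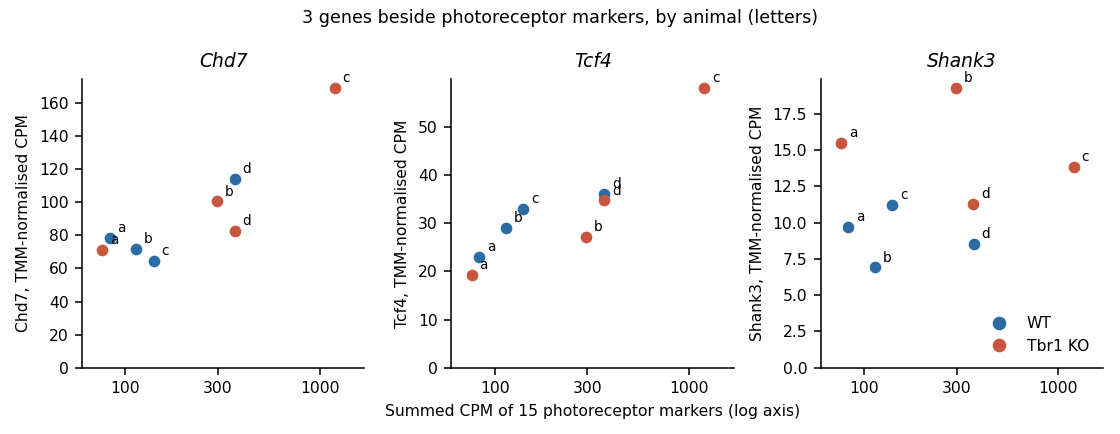
TMM-normalised CPM of Chd7, Tcf4 and Shank3 (vertical axes, from 0) against the summed CPM of 15 photoreceptor markers (log axis), one point per animal with its letter, WT in blue and Tbr1 KO in red. Mutant animal c, at 1196 CPM of photoreceptor markers, has the highest Chd7 and Tcf4 levels and not the highest Shank3 level.

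Adnp, a homeodomain zinc-finger protein that works with Chd4 and HP1, was nearly uncounted. It had 6, 7, 6 and 1 counts in control animals a to d and 17, 13, 35 and 14 in mutant animals a to d, 99 in all. These counts are not scaled to library totals. In CPM it was at 0.031 to 0.242 in controls and 0.233 to 1.04 in mutants, so the genotypes overlapped. It lay on chromosome 2, 168180986 to 168207112, where the GENCODE annotation places a readthrough gene, Gm20716, on the same strand over 4393 of its 5.35 kb of exons. A read that fits 2 genes is usually left uncounted as ambiguous, and ambiguous reads were 1.31% to 1.47% of the reads listed per library. Gm20716 is not among the gene names of the files, and whether its annotation lowered the Adnp counts was not tested. The related Adnp2 had 7.72 ± 2.99 CPM in controls and 9.51 ± 4.56 in mutants.

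Arid1b, a DNA-binding subunit of the BAF complex, and Pogz, a zinc-finger protein that binds HP1, differed little. Arid1b ranged from 27.2 to 33.3 CPM in controls and 26.9 to 39.7 in mutants, and Pogz from 44.3 to 71.5 and 45.9 to 77.4, with log2 fold changes of 0.18 ± 0.21 and -0.09 ± 0.22 (SE). The paralog Arid1a was higher than Arid1b per kb in controls (8.64 ± 1.56 against 2.33 ± 0.218 CPM). None of 27 other BAF subunits and associated factors passed the edgeR test over all genes, and 4 had an unadjusted p under 0.05, a threshold that 7.09% of all tested genes passed. Of the list, Smarca2, an ATPase of the complex, had 160 ± 15.9 CPM in controls and 120 ± 12.4 in mutants (log2 fold change -0.41 ± 0.13), and Dpf3 had 7.67 ± 6.12 and 18.0 ± 3.87 (1.23 ± 0.52). Of 6 HP1 and ADNP-related genes 0 passed, with Cbx3, an HP1 protein, at -0.72 ± 0.29 and Adnp2 at 0.30 ± 0.46.

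Among the histone methyltransferases, Suv420h1 had the lowest p of all members. Named Kmt5b in current annotation (chromosome 19, 3767421 to 3818303), it methylates histone H4. It was at 34.0, 30.4, 26.4 and 30.7 CPM in controls and 33.9, 42.6, 42.3 and 46.7 in mutants. Of the mutants 3 lay above every control, while mutant animal a, at 33.86 CPM, lay just under control animal a at 34.04. The log2 fold change was 0.44 ± 0.19 (SE; 95% interval 0.03 to 0.86), with an exact two-sided permutation p of 0.0571. The edgeR Benjamini-Hochberg adjusted p was 0.669 and was between 0.472 and 0.898 over the 18 alternatives. The 5 control pools spanned 20.5 to 33.9 CPM and the 6 mutant pools 32.4 to 46.6. Its paralog Suv420h2 was more abundant per kb in controls (18.1 ± 3.50 against 2.06 ± 0.212 CPM) and had a log2 fold change of 0.08.

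Kmt2c and Kmt2a, methyltransferases of histone H3, overlapped between genotypes. Kmt2c ranged from 102 to 113 CPM in controls and 91.5 to 115 in mutants, one of the smallest spreads of all members (4.09% of the mean in controls). Kmt2a was less even, from 36.6 to 70.1 and 46.3 to 65.6 CPM, with an SD of 25.3% of the mean in controls. Ash1l, another histone H3 methyltransferase, ranged from 64.2 to 94.4 and 65.6 to 104 CPM, and Setd5, a SET-domain protein, from 72.8 to 94.8 and 74.2 to 110. Their log2 fold changes lay between -0.09 (Kmt2a) and 0.21 (Ash1l). Ash1l shares 352 exonic bases with Dap3 on the opposite strand. Kmt2e and Kmt2d were the highest of the 5 KMT2 genes per kb in controls (27.7 ± 1.51 and 19.0 ± 3.55 CPM), above Kmt2c at 5.35 ± 0.219 and Kmt2a at 3.37 ± 0.853. Of 17 other genes of the MLL and SET1 complexes 0 passed, with Kmt2b at 44.6 ± 20.5 CPM in controls and 23.9 ± 6.17 in mutants (log2 fold change -0.90 ± 0.31, SE) and Hcfc1 at 0.43 ± 0.23. Of 18 other histone methyltransferases and 16 histone demethylases 0 passed, with Ehmt1 at 0.44 ± 0.19, Ezh1 at -0.36 ± 0.17, Kdm4c at 0.75 ± 0.38 and Kdm2a at -0.33 ± 0.24.

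Among the transcription factors and cofactors, Med13l did not overlap between genotypes. It encodes a subunit of the kinase module of Mediator (chromosome 5, 118560679 to 118765438). It was at 30.2, 35.9, 28.98 and 30.9 CPM in controls and 28.1, 19.7, 23.3 and 28.4 in mutants. The mutants all lay below the lowest control, although mutant animal d (28.4 CPM) came within 1 CPM of control animal c (28.98 CPM). The log2 fold change was -0.34 ± 0.21 (SE; 95% interval -0.81 to 0.13). An exact two-sided permutation test gave p = 0.0286, which restates that the genotypes did not overlap. The edgeR quasi-likelihood test gave an unadjusted p of 0.138 and a Benjamini-Hochberg adjusted p of 0.852. The pools of mutant animal b had 11.2 and 34.1 CPM, the second inside the control range of 28.9 to 43.3 CPM over pools. The log2 fold change was -0.24 with that animal left out. Per kb of exons Med13l was above its paralog Med13 in controls (2.04 ± 0.196 against 1.22 ± 0.3197 CPM). Of the 6 other genes of the kinase module 0 passed, with Cdk8 at 0.38 ± 0.44 and Cdk19 at -0.02 ± 0.35.

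Tcf4, a class I bHLH factor, was at 22.9, 29.03, 33.0 and 36.0 CPM in controls and 19.3, 27.1, 58.0 and 34.7 in mutants. The high value was again that of mutant animal c, and the log2 fold change of 0.20 ± 0.31 (SE) was -0.15 without it. Id4, an inhibitor of such factors, had 12.3 ± 3.26 CPM in controls and 25.8 ± 6.41 in mutants, with no overlap between genotypes. It did not pass the edgeR test (log2 fold change 1.07 ± 0.30; Benjamini-Hochberg adjusted p = 0.308), nor did the 4 other E protein and Id genes tested, such as Id3 at -0.33 ± 0.84. Ankrd11, a chromatin cofactor, split the controls into 83.5 and 90.5 against 42.2 and 41.7 CPM, with the mutants at 65.1, 45.2, 75.5 and 98.3. Its log2 fold change was 0.14 ± 0.30.

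Tbl1xr1, an exchange factor of the NCoR complex, was the lowest tested member per kb, at 0.599 ± 0.241 CPM in controls. It was at 3.23, 4.45, 5.40 and 8.26 CPM in controls and 12.2, 6.33, 6.31 and 6.05 in mutants, overlapping through control animal d, with a log2 fold change of 0.53 ± 0.48 (SE). Its paralog Tbl1x was at 5.40 ± 1.26 CPM per kb. Of 6 other NCoR-related genes 0 passed, with Tbl1x at a log2 fold change of -0.27 ± 0.27 and Hdac4 at 0.22 ± 0.26.

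Of the protein-modifying enzymes, Ube3a was the steadiest between animals. The ubiquitin ligase of Angelman syndrome, imprinted in neurons, was at 123, 107, 130 and 135 CPM in controls and 142, 132, 144 and 158 in mutants, so that 3 mutants lay above every control. The log2 fold change was 0.22 ± 0.12 (SE), the exact two-sided permutation p was 0.0571, and the edgeR Benjamini-Hochberg adjusted p was 0.813. Ube3a (chromosome 7, 59228750 to 59311536) shares 5624 exonic bases with 3 transcripts on the opposite strand, among them Snhg14, the antisense transcript known to silence it. Smart-seq2 does not mark strand, so their reads cannot be told apart there. Of 14 other HECT ligases 0 passed, with Huwe1 at -0.24 ± 0.14 and Wwp1 at 0.33 ± 0.25.

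Cul3, the scaffold of BTB-type ubiquitin ligases, was at 39.0, 17.2, 17.9 and 32.9 CPM in controls and 16.1, 24.6, 24.99 and 13.4 in mutants. The controls had 2 high and 2 low animals, and the log2 fold change was -0.44 ± 0.33 (SE). Cul1 and Cul2 were higher per kb in controls (43.3 ± 4.36 and 24.3 ± 4.96 CPM against 5.49 ± 2.24 for Cul3). Of 18 other cullin and adaptor genes tested 0 passed, and 13 of the 18 log2 fold changes were negative, with a median of -0.12, Keap1 at 0.31 ± 0.14 and Nedd8 at -0.26 ± 0.13. Dyrk1a, a dosage-sensitive kinase encoded in the Down syndrome region, ranged from 37.5 to 58.1 CPM in controls and 32.8 to 51.4 in mutants. Naa15, the auxiliary subunit of an N-terminal acetyltransferase, ranged from 76.0 to 107 and 68.8 to 106. Of 3 other DYRK kinases and 4 other genes of that acetyltransferase 0 passed, with Dyrk3 at 0.30 ± 0.55, Dyrk1b at -0.04 ± 0.28, Naa10 at -0.34 ± 0.29 and Naa16 at 0.25 ± 0.49.

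The translation and growth-signalling genes overlapped between genotypes without exception. Fmr1, which encodes the RNA-binding protein FMRP, was at 22.1, 25.4, 34.0 and 31.0 CPM in controls and 41.7, 37.3, 27.0 and 31.4 in mutants, with the 2 highest animals among the mutants and a log2 fold change of 0.29 ± 0.23 (SE). Per kb it was the lowest of its family in controls, at 3.14 ± 0.597 CPM beside 5.10 ± 1.61 for Fxr1 and 18.5 ± 4.67 for Fxr2. Of 7 genes of the FMRP family and its partners tested 0 passed, with Cyfip2 at 0.17 ± 0.13 and Nufip1 at -0.55 ± 0.34.

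Tsc1 and Tsc2 encode hamartin and tuberin, the partners that hold back mTOR. Tsc1 was at 26.5, 34.9, 25.3 and 40.5 CPM in controls and 20.5, 28.3, 29.6 and 37.4 in mutants. Tsc2 was at 54.8, 60.03, 74.4 and 74.1 CPM in controls and 60.9, 33.4, 45.3 and 72.9 in mutants, with mutant animals b and c below every control. Their log2 fold changes were -0.13 ± 0.25 and -0.31 ± 0.23 (SE). Tsc2 shares 693 exonic bases with Pkd1 on the opposite strand. Per kb, Tsc2 was above Tsc1 in controls (6.85 ± 1.04 against 2.69 ± 0.609 CPM). Of 19 other genes of the TSC and mTOR pathway 0 passed, with Pik3r1 at 0.52 ± 0.26 and Akt1 at -0.21 ± 0.18.

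Nf1, the RAS inhibitor of neurofibromatosis, was at 48.2, 38.4, 46.7 and 48.8 CPM in controls and 37.7, 45.8, 38.5 and 50.7 in mutants, for a log2 fold change of -0.08 ± 0.18 (SE). Of 20 other RAS pathway genes 0 passed. Araf, a kinase downstream of RAS, was at -0.26 ± 0.14 on the log2 fold change scale.

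Katnal2, a katanin-like protein of microtubule severing, was scarce and uneven. It was at 3.39, 7.64, 2.03 and 1.76 CPM in controls and 0.958, 0.718, 3.59 and 0.345 in mutants, from 720 counts in all. Mutant animal c was above 3 of the 4 controls, and the log2 fold change was -1.40 ± 0.97 (SE), -2.45 with mutant animal c left out and -0.77 with control animal b left out. Mutant library 1 held 0 counts of Katnal2 while library 2 of the same animal held 43. The 2 other katanin catalytic genes were higher per kb in controls, Katna1 at 12.4 ± 2.74 and Katnal1 at 6.09 ± 1.55 against 0.912 ± 0.669 CPM. Of 7 severing-enzyme genes 0 passed, with Katnal1 at a log2 fold change of -0.46 ± 0.20 and Fignl1, at under 1 CPM in controls on average (0.438), at 2.74 ± 1.52.

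Pools of the same animal differed too. In the 3 animals with 2 pools, the median size of the log2 difference between the pools was 0.44 (control animal b), 0.31 (mutant animal a) and 0.38 (mutant animal b) over the 28 members, close to 0.48, 0.40 and 0.37 over all tested genes. The median size of the genotype log2 fold change was 0.19 over the members and 0.24 over all tested genes, but it compares means of 4 animals and is smaller than a difference between single pools by averaging alone. Pools differed by more than 2-fold for 7, 2 and 5 members in the same order of animals. The share over all tested genes was not counted, so whether these numbers are usual is not known. Control animal b had the most such members and the shallowest pool of all, at 8609845 reads in genes against 31033784 in its other pool. The spread of CPM between control animals had a median of 18.9% of the mean over the members and 29.1% over all tested genes.

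In total, 257 partner genes outside the members were tested in 19 lists, among them 41 other autism-linked genes. None passed the edgeR test over all genes, and DESeq2 called 1. With the 11 libraries as separate samples edgeR also called 1, with or without a replicate block on the library number. At an unadjusted p under 0.05 there were 17 (6.61%) and without overlap between genotypes 12 (4.67%), beside 7.09% and 5.06% of all tested genes.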

How the data were processed

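RNA sequencing counts of 11 libraries were used. The authors deposited raw read counts per gene symbol. The submitters' processing notes name HTSeq 0.6.1, TopHat2 2.0.10, Trimmomatic 0.32 and GRCm38. Which step each tool did, which annotation was counted and with which strand setting, was not given in the sources used here. Lines naming no gene were left out of library sizes and tests. The share of reads assigned to genes was 60.1% to 63.9% per library. Per the labels' protocols, Smart-seq2 and Nextera XT were used, and the labels describe no molecular identifiers.

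Counts were summed per animal, filtered with filterByExpr (13957 genes left), TMM-scaled and fitted in edgeR 4.0.16 (R 4.3.3) by robust quasi-likelihood. P-values were adjusted over all tested genes by Benjamini-Hochberg. The standard error is the log2 fold change divided by the square root of F, and intervals use its degrees of freedom at 95%. Exact permutation tests used log2 of CPM plus 0.5. Lengths and positions came from GENCODE M21, which matched 98.9% of tested genes. The fit was tested on simulated data. Alternatives used DESeq2 1.42.0, limma 3.58.1, other scalings, filters and units of replication, and left out each animal.

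The members and lists were chosen with earlier results of these data known. Values per animal are given for the 8 members with the lowest p, the scaffold and signalling genes, and the 3 highest and 3 lowest members per kb. Values of Ankrd11, Tcf4 and Cul3 per animal were added after they were seen. Of each partner list the gene with the lowest p in each direction is named, except some that are not reported here. Other paralogs were added after their values were seen, to place a member's level within its family.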

Additional observations from a re-analysis of the deposited data

Results flagged for a closer look

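In 5 of 56 groups of 4 animals, over the 28 tested members, 1 animal stood far from the 3 others (Dixon's test at 95%), where chance flags about 1 group in 20. Chd8 was at 47.9 CPM in control animal d against 30.005 to 32.9 in the other controls. Pogz was at 77.4 CPM in mutant animal d against 45.9 to 50.2 in the other mutants. Tbl1xr1 was at 12.2 CPM in mutant animal a against 6.05 to 6.33. Wac was at 116 CPM in control animal c against 81.5 to 87.0, and at 71.5 CPM in mutant animal a against 103 to 104. Animals of both genotypes are among them, and no animal but mutant animal a appears more than once.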

How the results depend on the processing

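The count of 0 members past the threshold held under all 18 alternatives, with a lowest adjusted p of 0.472 (11 libraries as separate samples, edgeR), and the members' median log2 fold change stayed within -0.02 and 0.02. Over all genes, 40 passed, against 156 with DESeq2, 84 with the 11 libraries as separate samples, and 17 to 44 when 1 animal was left out (18 and 17 for control and mutant animal b, 22 for mutant animal a and 25 for mutant animal d). Of 504 member values, 482 kept their sign. Those that turned included Shank2 at 0.0031 with limma voom, Ankrd11 at -0.052 with libraries as separate samples, and Kmt2a at 0.020 with 1 library per animal. Over the fits without 1 animal, log2 fold changes were -0.058 to 0.35 for Ankrd11, -0.24 to 0.034 for Kmt2a, -0.18 to 0.048 for Naa15, -0.29 to 0.014 for Pogz, -0.11 to 0.10 for Setd5, -0.015 to 0.14 for Shank1, -0.16 to 0.10 for Shank2, -0.15 to 0.40 for Tcf4 and -0.28 to 0.0072 for Tsc1. The cause was not tested. The median control level of 3.86 CPM per kb was 6.21 per kb of the longest transcript and 3.39 to 4.29 without 1 control animal.

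Library numbers did not pair WT and KO libraries: deviations from group means correlated by -0.03 to 0.12, and 3 of 10 libraries correlated best with their own number. With a replicate block on that number, 43 genes and 0 members passed, and Tcf4, Ankrd11 and Shank2 turned to -0.075, -0.20 and 0.082.

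Low counts kept Adnp, with 99 in all, out of the test, and 3 animals rest on 2 pools while 5 rest on 1.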
